A study of Mus musculus with 21 samples.

Results

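Coch, Bok, Iyd, Grik4, Cdh24, Nr2f2, Dlk1 and Trhr are 8 of the 24498 genes counted in RNA from mouse hippocampus after ethanol. They were chosen by symbol as genes that mark hippocampal field CA3 or the ventral end of the hippocampus, to describe how each dissected library was placed. All 8 passed the filter on low counts, as did 14578 genes in all. The tissue came from male mice aged 8 weeks, of a strain that the labels do not give, and every library used here was made after an intraperitoneal dose of ethanol at 2 g/kg, given as a 20% solution. The Acss2 knockdown arm carried AAV2/9 U6.shACSS2.CMV.EGFP, a virus that expresses a short hairpin RNA against the acetyl-CoA synthetase Acss2 from a U6 promoter. The sample protocol places the virus in the dorsal hippocampus by stereotaxic surgery, also for animals whose ventral hippocampus was sequenced, whereas the series text can be read as a systemic injection. No vector is described for the control arm, and the interval between ethanol and dissection is not given. With over 1000000 gene reads there were 3 ventral knockdown, 4 ventral control, 4 dorsal knockdown and 3 dorsal control libraries. A further deep library, of knockdown arm, came from the whole hippocampus. Since the labels name no animals, tests here speak of the spread from library to library, which may be technical.

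The hippocampus is a folded sheet in which granule cells of the dentate gyrus send mossy fibres to CA3 pyramidal cells, and CA3 cells in turn excite CA1. Along its long axis the dorsal end is best known for spatial memory and the ventral end for emotional and stress-related behaviour. Pyramidal cells of each field and each end carry their own sets of marker genes, so the levels of such genes in a tissue piece reflect how much of each field and end it held. Of the CA3-enriched genes here, Grik4 encodes a kainate-type glutamate receptor subunit (GluK4), Bok a pore-forming member of the BCL-2 family of cell death proteins, Cdh24 a type II cadherin for cell adhesion, and Iyd the deiodinase that recovers iodide from iodotyrosines in the thyroid. Of the others, Dlk1 encodes a transmembrane relative of Notch ligands and is imprinted, Nr2f2 an orphan nuclear receptor (COUP-TFII), Trhr the G protein-coupled receptor for thyrotropin-releasing hormone, and Coch the extracellular matrix protein cochlin.

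RefSeq promoter sequences (GRCm38.p6, the build of mm10) were at hand for 7 of the 8 genes. Those of Iyd, Cdh24, Nr2f2 and Dlk1 are shown because Iyd and Cdh24 belong to one of the 2 sets of genes described below that moved together across libraries, and Nr2f2 and Dlk1 to the other. Each is the 250 bases before the RefSeq start, read 5′ to 3′ on the gene's strand. For Iyd this window runs past the gene start given below from GENCODE (chr10:3540240), so its last bases lie inside the gene as placed there. Capitals mark the motifs searched on both strands, which were the nuclear receptor half-site AGGTCA, the E-box CAGATG and the core promoter element TATAAA.
Iyd (chr10:3540024-3540273, plus strand): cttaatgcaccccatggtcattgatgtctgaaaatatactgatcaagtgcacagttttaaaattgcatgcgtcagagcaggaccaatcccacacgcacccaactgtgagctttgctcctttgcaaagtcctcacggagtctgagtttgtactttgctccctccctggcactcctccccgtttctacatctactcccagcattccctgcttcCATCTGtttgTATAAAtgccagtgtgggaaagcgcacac
Cdh24 (chr14:54641365-54641614, minus strand): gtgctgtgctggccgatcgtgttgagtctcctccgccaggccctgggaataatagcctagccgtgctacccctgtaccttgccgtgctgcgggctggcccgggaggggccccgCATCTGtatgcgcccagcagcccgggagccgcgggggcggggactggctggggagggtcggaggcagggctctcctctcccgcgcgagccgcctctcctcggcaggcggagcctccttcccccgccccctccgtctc
Nr2f2 (chr7:70366747-70366996, minus strand): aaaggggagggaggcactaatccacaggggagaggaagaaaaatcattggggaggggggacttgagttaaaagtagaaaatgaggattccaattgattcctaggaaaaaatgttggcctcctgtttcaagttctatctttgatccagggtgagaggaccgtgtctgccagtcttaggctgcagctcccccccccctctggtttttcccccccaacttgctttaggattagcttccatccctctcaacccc
Dlk1 (chr12:109452573-109452822, plus strand): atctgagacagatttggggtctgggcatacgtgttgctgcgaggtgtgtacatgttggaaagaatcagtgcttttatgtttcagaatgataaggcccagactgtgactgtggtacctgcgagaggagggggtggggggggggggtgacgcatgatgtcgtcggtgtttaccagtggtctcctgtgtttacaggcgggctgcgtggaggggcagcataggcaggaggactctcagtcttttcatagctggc
Iyd and Cdh24 each held the E-box, read here as CATCTG, and Iyd also held TATAAA. None of the 3 motifs was found in the windows of Nr2f2, Dlk1, Bok, Coch or Grik4, which describes these letters only. Among 27025 promoter windows of the same length, 13.8% held AGGTCA, 14.5% CAGATG and 13% TATAAA. The Cdh24 window was 72.8% G or C, against 48.4% for Iyd, 50% for Nr2f2 and 54.8% for Dlk1.

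Between 2819837 and 13240179 reads fell in genes in each of the 15 deep ethanol libraries. Ventral knockdown 1 (8744 reads), dorsal knockdown 5 (5021 reads) and the 4 untreated libraries (4279 to 221847 reads) were too shallow for levels. The ribosomal precursor Rn45s ranged from 5620 CPM (gene reads scaled to a library of 1000000 after TMM, which corrects for the composition of each library) in ventral control 1 to 259000 CPM in dorsal control 1. Acss2, the targeted gene, was 28.8, 63.4 and 36.6 CPM in ventral knockdown 2, 3 and 4 and 44.1, 40.7, 18 and 19.2 CPM in dorsal knockdown libraries 1 to 4, against 47.4 to 58.5 CPM in the 7 controls. The library labelled ventral knockdown 3 thus had the highest Acss2 level of all 15, above every control. The targeted gene therefore went against the knockdown label of this library. The protocol places the virus in the dorsal hippocampus, so a reduction in ventral tissue cannot be presumed, and the cause was not tested. For comparisons that include this library, the median log2 fold change of the chosen genes is also given without it. Group means, SDs, within-group correlations and counts for marker lists are given only with it. Acss2 averaged 42.9 ± 18.2 CPM in ventral knockdown and 49.9 ± 3.02 CPM in ventral control libraries (SD, n = 3 and 4), and 30.5 ± 13.8 CPM in dorsal knockdown and 54.7 ± 3.32 CPM in dorsal control libraries (SD, n = 4 and 3). The dorsal groups of Acss2 did not overlap, yet the difference missed the test (log2 fold change -0.84, SE 0.32, edgeR quasi-likelihood adjusted p = 0.964).

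Per kilobase of exon, Bok was the most abundant of the 8 genes, at a mean of 35.4 CPM per kb over the 15 libraries. Grik4 followed at 10.9 CPM per kb, Cdh24 at 5.3, Dlk1 at 4.15 and Nr2f2 at 4.06. Coch, Trhr and Iyd were the least abundant, at 2.44, 2.12 and 1.92 CPM per kb. The order of Dlk1 and Nr2f2, and of the last 3 genes, rests on differences smaller than their spread between libraries.

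Grik4 (chr9:42518135-42944493, minus strand, mm10, protein coding) varied least. It stood at 52.6, 88.0 and 33.7 CPM in ventral knockdown libraries 2, 3 and 4, and at 52.1, 66.8, 86.0 and 58.3 CPM in ventral controls 1 to 4. In dorsal knockdown libraries 1 to 4 it was 136, 59.1, 54.0 and 73.5 CPM, and in dorsal controls 1 to 3 it was 85.8, 34.5 and 58.4 CPM. All 4 groups overlapped, and their means lay between 58.1 ± 27.6 CPM in ventral knockdown and 80.7 ± 37.8 CPM in dorsal knockdown libraries (SD, n = 3 and 4).

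Bok (chr1:93685660-93695764, plus strand) was set by single libraries. It measured 18.2, 188 and 23.4 CPM in ventral knockdown 2, 3 and 4, against 22.5, 59.2, 86.5 and 89.4 CPM in ventral controls 1 to 4. Dorsal knockdown libraries 1 to 4 held 91.7, 52.4, 81.3 and 85.6 CPM, and dorsal controls 1 to 3 held 97.4, 27.1 and 32.3 CPM. The library labelled ventral knockdown 3 had the highest Bok of all 15 libraries while its companions, ventral knockdown 2 and 4, were among the lowest, so that the ventral knockdown SD (96.5 CPM) exceeded the mean (76.5 CPM, n = 3).

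Cdh24 (chr14:54631231-54641364, minus strand), whose 5′ end overlaps Gm17606 on the other strand, followed Bok. Its levels were 4.8, 29.5 and 8.6 CPM in ventral knockdown 2, 3 and 4 and 7.57, 11.2, 37.0 and 26.5 CPM in ventral controls 1 to 4. Dorsal knockdown libraries 1 to 4 gave 22.3, 7.64, 20.0 and 18.8 CPM, and dorsal controls 1 to 3 gave 40.5, 15.4 and 11.6 CPM. Dorsal control 1, ventral control 3 and the library labelled ventral knockdown 3 were the 3 highest libraries, each from another group.

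Iyd (chr10:3540240-3554877, plus strand) was rare, with 1 to 140 reads per library, and spanned the widest range of the 7 genes seen in every library. It was 0.246, 14.5 and 0.104 CPM in ventral knockdown 2, 3 and 4, against 1.98, 1.02, 6.51 and 9.86 CPM in ventral controls 1 to 4. Dorsal knockdown libraries 1 to 4 held 1.99, 1.74, 1.09 and 0.801 CPM, and dorsal controls 1 to 3 held 5.33, 0.095 and 0.91 CPM. The lowest values, in ventral knockdown 4 and dorsal control 2, rest on 1 read each. The 140 reads of the library labelled ventral knockdown 3 and the 90 of ventral control 4 put these libraries at the top.

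Dlk1 (chr12:109452823-109463336, plus strand) overlapped between regions in both arms. Ventral knockdown 2, 3 and 4 held 9.48, 0.517 and 32.0 CPM, against 9.79, 41.5, 18.3 and 15.1 CPM in dorsal knockdown libraries 1 to 4. Ventral controls 1 to 4 held 55.2, 38.2, 45.5 and 24.0 CPM, against 2.67, 6.94 and 47.4 CPM in dorsal controls 1 to 3. Without ventral knockdown 4 all ventral knockdown values would lie below the dorsal ones, and without dorsal control 3 the control regions would be apart the other way.

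Nr2f2 (chr7:70351944-70366735, minus strand), which overlaps B130024G19Rik on the other strand, had levels of 29.8, 6.72 and 45.8 CPM in ventral knockdown 2, 3 and 4 and 64.7, 47.2, 20.6 and 31.1 CPM in ventral controls 1 to 4. Dorsal knockdown libraries 1 to 4 gave 62.9, 68.8, 15.3 and 22.4 CPM, and dorsal controls 1 to 3 gave 13.8, 20.3 and 58.4 CPM. The highest Nr2f2 of all was in a dorsal library, dorsal knockdown 2, and the lowest in a ventral one, the library labelled ventral knockdown 3.

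Trhr (chr15:44196135-44235912, plus strand) was 3.32, 0.724 and 7.25 CPM in ventral knockdown 2, 3 and 4, against 42.5, 12.7, 2.77 and 2.19 CPM in ventral controls 1 to 4. Dorsal knockdown libraries 1 to 4 held 8.66, 22.1, 1.41 and 3.87 CPM. In dorsal controls 2 and 3 it was 2.76 and 15.5 CPM, while dorsal control 1 had 0 reads, which at its depth allows up to 1.33 CPM (3 reads, counting error only). Ventral control 1, dorsal knockdown 2 and dorsal control 3 were the highest, in that order, so the first of these came from the ventral and the next from the dorsal hippocampus.

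Coch (chr12:51593341-51605771, plus strand) was the only one of the 8 genes to separate the groups in any of the 4 comparisons of region or arm. Of all tested genes, 1.63% lay wholly lower and 1.05% wholly higher in ventral knockdown than in ventral control libraries. In the other comparisons 0.713% to 5.54% of genes lay wholly apart in a given direction. Coch was 3.94, 1.34 and 4.45 CPM in ventral knockdown 2, 3 and 4, against 11.2, 9.18, 9.28 and 17.4 CPM in ventral controls 1 to 4. Dorsal knockdown libraries 1 to 4 held 8.52, 8.51, 3.7 and 12.3 CPM, and dorsal controls 1 to 3 held 2.22, 10.4 and 5.46 CPM. Each ventral knockdown library lay below each ventral control, and the dorsal groups overlapped with each other. Between regions 1 library decided the overlap in each arm: without dorsal knockdown 3 the ventral knockdown values would lie below the dorsal ones, and without dorsal control 2 the ventral controls would lie above the dorsal ones.

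**Figure D1:**
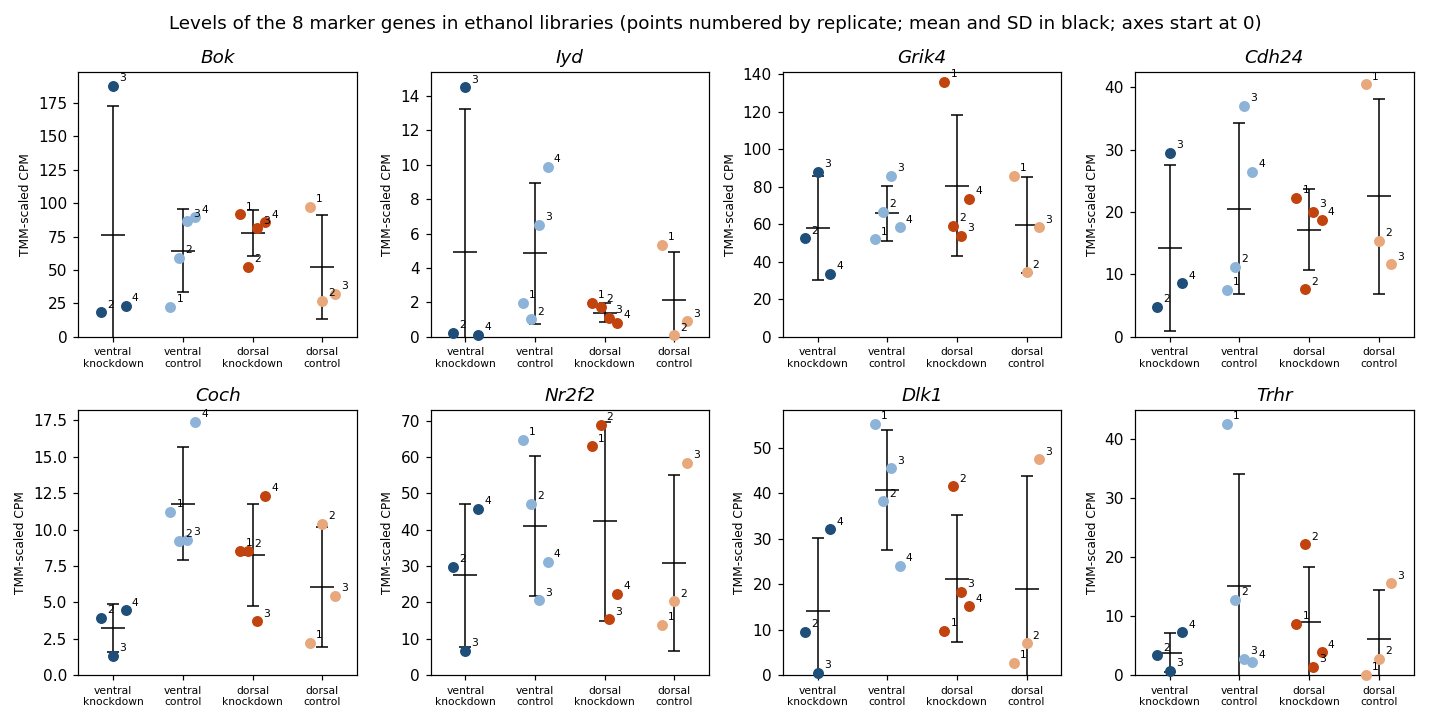
Levels of the 8 genes in TMM-scaled CPM (vertical axes, linear, from 0) in the 14 deep ventral and dorsal ethanol libraries, with points numbered by replicate and black marks for the group mean and SD; lower SD arms that would fall below 0 end at the axis. The ventral knockdown points of Coch (1.34 to 4.45 CPM) lie below all ventral controls (9.18 to 17.4 CPM), as did those of 1.63% of all tested genes. In the other 7 panels the groups overlap.

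For 7 of the 8 genes most of the variation lay between libraries of the same group. The within-group SD of log2 CPM was 2.24 for Trhr, 2.0 for Iyd, 1.69 for Dlk1, 1.08 for Bok, 1.07 for Nr2f2, 1.0 for Cdh24, 0.78 for Coch and 0.57 for Grik4, against a median of 0.43 over all tested genes. Of all tested genes, 0.151% had a larger within-group SD than Trhr, 0.391% than Iyd and 0.953% than Dlk1. The share of log2 variance that lay between the 4 groups was 53.4% for Coch and 34.0% for Dlk1, and 10.8% to 16.6% for the other 6 genes, against a median of 18% over all tested genes.

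The within-group variation was shared. Across the 15 libraries Bok, Iyd, Grik4 and Cdh24 moved together, with Pearson r of log2 CPM from 0.53 to 0.79 over their 6 pairs (Spearman rho 0.61 to 0.88). Nr2f2, Dlk1 and Trhr also moved together, with r from 0.74 to 0.85 over 3 pairs (rho 0.74 to 0.94). Between these sets all 12 pairs had a negative r, from -0.69 to -0.07 (rho -0.7 to 0.03). Without the 2 libraries farthest from the median of the gene named first in each pair, r was 0.5 to 0.79 within the first set, 0.61 to 0.86 within the second and -0.77 to 0.11 between them. The libraries left out differed by pair. The library labelled ventral knockdown 3 and dorsal control 1 were highest in the mean of the first set (1.63 and 1.15) and lowest in that of the second (-2.94 and -2.83). How far the negative r between the sets rests on them was not tested, as no value here leaves out both. After subtraction of group means in 14 libraries, r was 0.6 to 0.91 within the Bok set, 0.71 to 0.85 within the Dlk1 set and -0.82 to -0.29 between the sets. These sets were drawn from these correlations, so the values describe 15 libraries that share dissection, preparation and scaling, and carry no test. In tissue pieces like these, fewer cells of a type and less RNA per cell cannot be told apart.

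Coch sided with the Dlk1 set, with r from 0.58 to 0.7 over 3 pairs, and stood near 0 with the Bok set (-0.14 to 0.03 over 4 pairs). Within groups its r with the Bok set was -0.63 to -0.48 and with the Dlk1 set 0.48 to 0.53. Without the library labelled ventral knockdown 3 and the total hippocampus library, r of Coch with the Dlk1 set was 0.33 to 0.51.

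**Figure D2:**
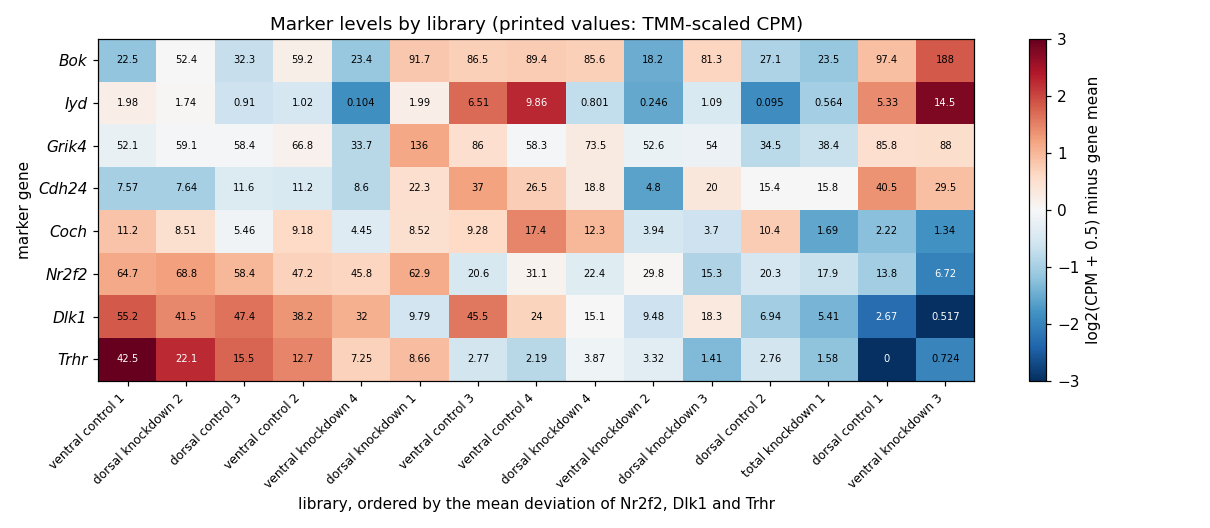
The 8 genes (rows) in the 15 deep ethanol libraries (columns, ordered by the mean of Nr2f2, Dlk1 and Trhr), with colour for log2(CPM + 0.5) minus the gene mean and the CPM printed in each cell. The last columns, dorsal control 1 and the library labelled ventral knockdown 3, are lowest in the mean of Nr2f2, Dlk1 and Trhr. They are highest in the mean of Bok, Iyd, Grik4 and Cdh24. Dorsal libraries stand among the ventral ones from end to end.

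The mean log2 deviation of each set from its gene means gives every library a place. In the Dlk1 set the libraries ranked from ventral control 1 (2.18) through dorsal knockdown 2 (1.75), dorsal control 3 (1.57), ventral control 2 (1.27) and ventral knockdown 4 (0.9) down to dorsal control 1 (-2.83) and the library labelled ventral knockdown 3 (-2.94). Both ends of that order therefore held a ventral library with a dorsal one next to it. At the low end reads were few, with 0 of Trhr and 6 of Dlk1 in dorsal control 1. The library labelled ventral knockdown 3 had 7 of Trhr and 5 of Dlk1. Nr2f2 had 31 reads in the former and 65 in the latter. Rn45s was 5620 CPM in ventral control 1, 9890 in dorsal knockdown 2, 33900 in dorsal control 3 and 41200 in ventral control 2. It was 259000 CPM in dorsal control 1 but 10000 CPM in the library labelled ventral knockdown 3. The part of library preparation in this order was not tested. In the Bok set the library labelled ventral knockdown 3 (1.63) and dorsal control 1 (1.15) came first, followed by ventral controls 3 (1.14) and 4 (1.04), while ventral knockdown 4 (-1.41) came last. The 3 ventral knockdown libraries spanned -2.94 to 0.9 in the Dlk1 set and the 4 dorsal knockdown libraries -0.64 to 1.75. The 4 ventral controls spanned 0.02 to 2.18 and the 3 dorsal controls -2.83 to 1.57. Neither set put the libraries in the order of their region labels, and the library labelled ventral knockdown 3 was last of 15 in the mean of Nr2f2, Dlk1 and Trhr.

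**Figure D3:**
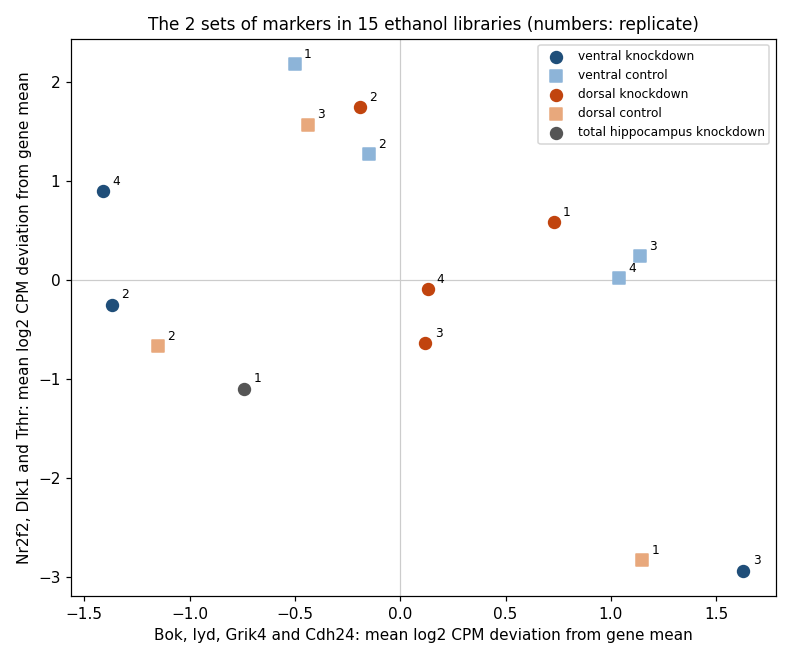
Each of the 15 deep ethanol libraries by the mean log2 CPM deviation of Bok, Iyd, Grik4 and Cdh24 (horizontal) and of Nr2f2, Dlk1 and Trhr (vertical), with colours for groups and numbers for replicates. The library labelled ventral knockdown 3 and dorsal control 1 share the lower right corner at -2.94 and -2.83 on the vertical axis, and dorsal knockdown 2 and dorsal control 3 lie beside ventral controls 1 and 2 at the top.

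Further genes from textbook lists bore on the same placement. The 6 other ventral genes (Htr2c, Dcn, Gpc3, Etv1, Lypd1 and Grp) followed the Dlk1 set, with r = 0.90 and rho = 0.89 over the 15 libraries and r = 0.91 without the 2 farthest. Dcn, which encodes the small proteoglycan decorin, measured 42.4, 4.24 and 75.1 CPM in ventral knockdown 2, 3 and 4 and 317, 55.8, 15 and 23 CPM in ventral controls 1 to 4. In dorsal knockdown libraries 1 to 4 Dcn was 26.1, 222, 19.6 and 13.9 CPM, and in dorsal controls 1 to 3 it was 3.11, 19.5 and 110 CPM. Dcn was thus also high in dorsal knockdown 2 and dorsal control 3 and low in the library labelled ventral knockdown 3 and dorsal control 1. Not every gene of this list did the same. Lypd1 was 112 CPM in the library labelled ventral knockdown 3, above 37.2 and 55.7 CPM in ventral knockdown 2 and 4. The 12 other genes of CA3 pyramidal and mossy cells followed the Bok set less closely (r = 0.57, rho = 0.51, and r = 0.62 without the 2 farthest). They followed the Dlk1 set with r = 0.28 and rho = 0.47, and with r = 0.60 without the 2 farthest. The CA2 list followed the Bok set with r = 0.75 and rho = 0.76. Markers of the neocortex ran against the Bok set (r = -0.72, rho = -0.67), as did those of striatum and amygdala (r = -0.66, rho = -0.65) and of GABAergic interneurons (r = -0.62, rho = -0.62). Without the 2 farthest libraries these values were -0.79, -0.52 and -0.67. How much the share of these other tissues set the levels of the 8 genes was not tested.

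The genes nearest in pattern to each of the 8, among 11761 genes averaging 5 CPM or more, included members of the same lists. For Grik4 they were Homer3 (r = 0.92), a synaptic scaffold gene that is also on the CA3 list, Mpp3 (0.91) and Rem2 (0.91). For Bok they were Cotl1 (0.93), Rem2 (0.90) and Lrrc10b (0.86). For Iyd they were B3galt5 (0.92), Il16 (0.92) and Zap70 (0.90), and for Cdh24 they were Mdga1 (0.91), Wscd1 (0.90) and Epn2 (0.88). For Trhr they were Smarca1 (0.94), Dcn (0.92), which is also on the ventral list, and Gda (0.90). For Dlk1 they were AW551984 (0.91), Adra2a (0.89) and Ppfibp1 (0.86), and for Nr2f2 Timp2, Myh7 and Vgll3 (each 0.88). Coch had weaker neighbours in Cfap69 (0.80), Met (0.79) and Ercc6l2 (0.79). These are Pearson r of log2 CPM over 15 libraries, given as a description of likeness only.

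Whether ventral and dorsal libraries differed was asked in each arm. In the knockdown arm 7 of the 8 genes had a lower fitted level in ventral than in dorsal libraries (median log2 fold change -0.54, against 0.01 over all genes). None passed at an adjusted p under 0.05 by edgeR or DESeq2, against a background of 0% (0 of 14578 genes by either tool, and 317 at an unadjusted p under 0.05). Coch had the lowest p, with a log2 fold change of -1.34 (SE 0.52, unadjusted p = 0.0216, edgeR adjusted p = 1), and its groups overlapped. Trhr had -1.26 (SE 1.19, edgeR adjusted p = 1). Iyd had 1.81 (SE 1.23, edgeR adjusted p = 1), which rested on the library labelled ventral knockdown 3 and became -2.93 without it. None of the 8 separated the regions, where 0.713% of genes lay wholly higher and 1.04% wholly lower in ventral knockdown libraries. The other ventral genes were lower in 5 of 6 (median -0.36) and the other CA3 and mossy cell genes in 10 of 12 (median -0.17), with 0 passing in either list. Without the library labelled ventral knockdown 3, all 8 genes were lower in ventral libraries, with a median of -0.93. Without ventral knockdown 2, or without ventral knockdown 4, 3 of the 8 were higher (medians -0.39 and -0.71), and without dorsal knockdown 1 or 2 the median was -0.24 or -0.28. Other lists differed more between these regions, with 0 genes passing in each. Genes of the dorsal hippocampus were higher in ventral libraries in 4 of 5 (median 0.97), with summed levels of 362 to 797 CPM in ventral and 225 to 421 CPM in dorsal knockdown libraries, and Wfs1 was 175 to 623 CPM in ventral and 86.2 to 144 CPM in dorsal knockdown libraries. In the mean log2 deviation of this list only the library labelled ventral knockdown 3 stood out, at 1.44. Ventral knockdown 2 and 4, at -0.25 and -0.14, lay inside the range of dorsal knockdown libraries (-1.1 to 0.56). Meninges and fibroblast genes were higher in 11 of 11 (median 1.05), and dentate granule cell genes in 8 of 8 (median 0.56). For the meninges list only ventral knockdown 4 stood out, at 581 CPM summed. Ventral knockdown 2 and the library labelled ventral knockdown 3, at 91.2 and 58.5 CPM, lay inside the range of dorsal knockdown libraries (57.6 to 94.5 CPM). For the dentate list the same libraries, at 406 and 332 CPM, lay above the dorsal knockdown libraries (184 to 217 CPM). Ventral knockdown 4, at 133 CPM, lay below them. The part of these lists in the levels of the 8 genes was not tested.

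In the control arm most estimates had the other sign. Of the 8 genes, 7 had a higher fitted level in ventral than in dorsal libraries, with a median log2 fold change of 0.63, against 0.06 over all genes. None of the 8 passed at an adjusted p under 0.05 by edgeR's quasi-likelihood test or by DESeq2, where the background was 0% (0 of 14578 genes by edgeR, 813 at an unadjusted p under 0.05, and 13 by DESeq2). Iyd, Trhr and Dlk1 had the largest estimates, with log2 fold changes of 1.69 (SE 1.39), 1.15 (SE 1.17) and 1.03 (SE 0.93) and edgeR adjusted p = 0.749, 0.789 and 0.765. When single libraries were left out, Dlk1 ranged from 0.57 without dorsal control 1 to 2.96 without dorsal control 3, Iyd from 0.91 without dorsal control 2 to 3.21 without dorsal control 1, and the median of the 8 from 0.38 without dorsal control 2 to 1.02 without dorsal control 3. The sign of Trhr turned to -0.26 without ventral control 1, and without that library edgeR called 6 genes in all. None of the 8 separated the regions, where 3.72% of genes lay wholly higher and 5.54% wholly lower in ventral controls. The other ventral genes were higher in 6 of 6 (median 0.72), with Dcn at 1.17 (SE 1.29) and Htr2c, the serotonin 2C receptor gene, at 1.06 (SE 0.60), and 0 of them passed. Htr2c was 107, 52.8, 20 and 138 CPM in ventral controls 1 to 4, against 16.4, 28.9 and 67 CPM in dorsal controls 1 to 3. The other CA3 and mossy cell genes were higher in 11 of 12 (median 0.66), with Calb2, the calretinin gene of mossy cells, at 1.58 (SE 0.88) and Nectin3 at 1.11 (SE 0.49), and 0 passed. The CA1 list was lower in 5 of 7 (median -1.34), and its summed level was 150 to 427 CPM in ventral controls and 741 to 926 CPM in dorsal controls. Choroid plexus genes were higher in 10 of 10 (median 3.5), with a summed level of 15700 CPM in ventral control 4. Ventral controls 1 to 3, at 48.1, 92.0 and 641 CPM, overlapped the dorsal controls (47.6 to 411 CPM). Dentate granule cell genes were higher in 8 of 8 (median 0.95) and meninges and fibroblast genes in 11 of 11 (median 0.39), and 0 genes of these lists passed. Summed dentate levels were 217, 276, 1040 and 429 CPM in ventral controls 1 to 4, against 355, 147 and 238 CPM in dorsal controls 1 to 3. Summed meninges levels were 66.7, 73.2, 355 and 583 CPM, against 59.6, 176 and 204 CPM. Both lists thus overlapped between the regions. The part of all these lists in the levels of the 8 genes was not tested.

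The difference between these regional differences was fitted as an interaction, knockdown minus control. It was negative for 7 of the 8 genes (median -0.81, against -0.05 over all genes), and 0 of the 8 passed by edgeR or DESeq2, against a background of 0% (0 of 14578 genes by edgeR, 672 at an unadjusted p under 0.05, and 9 by DESeq2). Coch had -2.24 (SE 0.73, unadjusted p = 0.00786, edgeR adjusted p = 0.998). Trhr had -2.41 (SE 1.67, edgeR adjusted p = 0.998) and Dlk1 had -1.63 (SE 1.32, edgeR adjusted p = 0.998). When single libraries were left out, 0 to 3 of the 8 were positive, the median ranged from -1.58 without the library labelled ventral knockdown 3 to -0.5 without dorsal knockdown 1, and Dlk1 from -3.55 without dorsal control 3 to -1.04 without the library labelled ventral knockdown 3. Without the library labelled ventral knockdown 3 edgeR called 2 genes in all, and without ventral control 1 it called 1. The change of sign between the arms did not pass the test for any of the 8.

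Knockdown and control were then compared within each region. In ventral libraries 7 of the 8 genes were lower in knockdown (median log2 fold change -0.55, against -0.01 over all genes), and 0 of 8 passed by edgeR or DESeq2. The background was 0% (0 of 14578 genes by edgeR, 593 at an unadjusted p under 0.05, and 35 by DESeq2). Coch averaged 3.25 ± 1.67 CPM in ventral knockdown and 11.8 ± 3.88 CPM in ventral control libraries (SD, n = 3 and 4), a log2 fold change of -1.86 (SE 0.53, unadjusted p = 0.00322, edgeR adjusted p = 0.712). It was the 1 of 8 whose knockdown libraries all lay below the controls, as did 1.63% of all genes, and 1.05% lay wholly above. Trhr had -1.98 (SE 1.22, edgeR adjusted p = 1) and Dlk1 -1.54 (SE 0.95, edgeR adjusted p = 1). Dlk1 averaged 14 ± 16.2 CPM in ventral knockdown and 40.7 ± 13.1 CPM in ventral control libraries (SD, n = 3 and 4), with ventral knockdown 4 inside the control range. Without the library labelled ventral knockdown 3 all 8 genes were lower in knockdown (median -1.47), and Coch was at -1.48. Without ventral knockdown 2, 2 of the 8 were higher (median -0.38), and without ventral knockdown 4, 3 were higher (median -0.71). Dlk1 was at -0.96 without the library labelled ventral knockdown 3 and at -3.04 without ventral knockdown 4. Without ventral control 1 edgeR called 8 genes in all, and Trhr was at -0.56.

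Other markers moved beside these ventral differences. The other ventral genes were lower in knockdown in 5 of 6 (median -1.14), led by Htr2c at -1.80 (SE 0.62, unadjusted p = 0.011, edgeR adjusted p = 0.913) and Gpc3 at -1.57 (SE 0.76), and 0 passed. Htr2c was highest in ventral control 4 (138 CPM), where choroid plexus genes were also highest, and next in ventral control 1 (107 CPM). The part of choroid plexus in the Htr2c difference was not tested. The other CA3 and mossy cell genes were lower in 10 of 12 (median -0.39), with Calb2 at -2.01 (SE 0.90) and Dkk3 at the other end at 0.59 (SE 0.26), and 0 passed. The CA1 list was higher in 6 of 7 (median 0.96), with a summed level of 587 to 1140 CPM in ventral knockdown and 150 to 427 CPM in ventral control libraries. Wfs1, a marker of dorsal CA1, reached 623 CPM in ventral knockdown 4, against 34.8 to 98.2 CPM in ventral controls. Dentate granule cell genes were lower in 8 of 8 (median -0.62), but their summed levels overlapped. These were 406, 332 and 133 CPM in ventral knockdown 2, 3 and 4, against 217, 276, 1040 and 429 CPM in ventral controls 1 to 4. All 10 choroid plexus genes were lower (median -5.22), with summed levels of 67.7 to 77.7 CPM in ventral knockdown libraries and 48.1 to 641 CPM in ventral controls 1 to 3, against 15700 CPM in ventral control 4. Ventral control 4 also had the highest Coch (17.4 CPM), and without it the Coch difference was -1.60. The part of these tissues in the differences of the 8 genes was not tested.

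In dorsal libraries, where the protocol places the virus, 6 of the 8 genes were higher in knockdown (median log2 fold change 0.40, against 0.03 over all genes). Estimates ran from -0.34 for Cdh24 to 0.61 for Bok, the lowest unadjusted p was 0.27, and 0 of 8 passed by edgeR or DESeq2. The background was 0% (0 of 14578 genes by edgeR, 667 at an unadjusted p under 0.05, and 11 by DESeq2). None of the 8 separated the groups, where 3.77% of genes lay wholly higher and 3.26% wholly lower in knockdown. Bok averaged 77.7 ± 17.4 CPM in dorsal knockdown and 52.2 ± 39.2 CPM in dorsal control libraries (SD, n = 4 and 3). Nr2f2 averaged 42.4 ± 27.4 CPM in dorsal knockdown and 30.8 ± 24.1 CPM in dorsal control libraries (SD, n = 4 and 3). The other ventral genes were higher in 2 of 6 (median -0.05) and the other CA3 and mossy cell genes in 10 of 12 (median 0.65), with Calb2 at 1.36 (SE 0.87) and Dkk3 at -0.10 (SE 0.26), and 0 passed. Without dorsal knockdown 2, 4 of the 8 genes were higher and the median was 0.01. It was 0.25 without dorsal knockdown 1, 0.23 without dorsal control 1 and 0.12 without dorsal control 2.

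**Figure D4:**
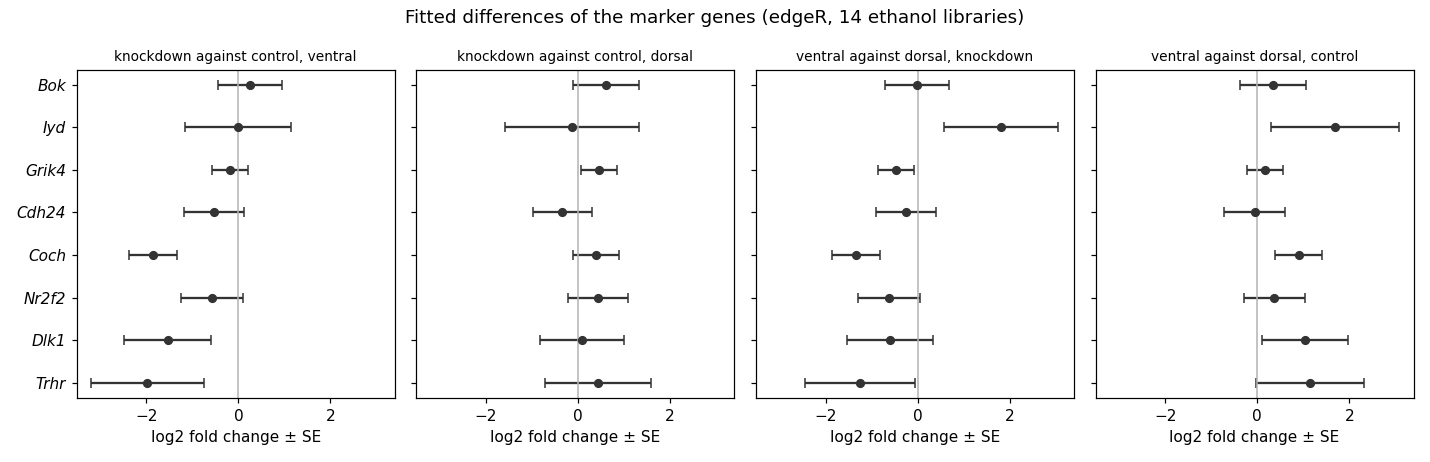
Fitted log2 fold changes of the 8 genes with their SE (horizontal axes) in the 4 comparisons of 14 libraries, with the vertical line at 0. Coch against ventral controls (-1.86, SE 0.53) lies farthest from 0 in units of its SE.

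Relatives and pathway partners of the 8 genes had no common direction. Of 17 listed, all tested, 10 were higher and 7 lower in ventral knockdown than in ventral control libraries (9 and 8 with RLE scaling), and 9 were higher and 8 lower in dorsal knockdown than in dorsal control libraries. Between regions 6 were higher in ventral than in dorsal knockdown libraries, and 7 were higher in ventral than in dorsal controls. Of these genes 0 passed in any comparison. The kainate receptor subunit genes Grik5, Grik3 and Grik2 had means of 285, 81.3 and 52.0 CPM over the 15 libraries, and Nr2f1, the closest relative of Nr2f2, had 60.5 CPM. Nr2f1 differed between ventral and dorsal libraries by -0.36 (SE 0.24) in knockdown and -0.42 (SE 0.23) in control, on the log2 scale, while Nr2f2 differed by -0.63 (SE 0.67) in knockdown and 0.37 (SE 0.67) in control. Trh, the hormone bound by the Trhr receptor, reached 148 CPM in dorsal knockdown 3 and 28.7 CPM in ventral knockdown 2, where Trhr was at 1.41 and 3.32 CPM. In the other 13 libraries Trh was between 0.267 and 11.7 CPM. Of the hypothalamus list, to which Trh belongs, 4 of 14 genes were tested, and Trh made up 148 of its 169 CPM summed in dorsal knockdown 3.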

How the data were processed

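The deposited values are raw counts for each gene in 21 libraries, made by the authors, per the submitters' processing notes with STAR 2.5.2a and HTSeq 0.6.1p1 on mm10. The kit was directional, and how strand was set in counting is not stated in any source used. Totals leave out the 5 lines that name no gene (of gene, no-feature and ambiguous reads together, gene reads made up 57.4% to 81% per deep library), and 0 sample columns went unused. Groups came from sample titles. Counts of the 14 deep libraries (over 1000000 gene reads) were fitted together in edgeR 4.0.16 (R 4.3.3; filterByExpr with a minimum count of 10, TMM, robust quasi-likelihood F-test, 4 group means, 5 comparisons), adjusted by Benjamini-Hochberg over all 14578 tested genes and called under 0.05. No test used the untreated, shallow or total hippocampus libraries. Levels are TMM-scaled CPM over 15 libraries, and correlations use log2 CPM with a prior count of 1. Lists of markers numbered 16. A fold change was printed for a member with an absolute log2 value of at least 1 or an unadjusted p under 0.05, and for up to 4 genes of a list, the highest and lowest with at least 5 CPM. Wfs1, Trh, Nr2f1 and the values of Nr2f2 beside it, and the per-library values of Dcn, Lypd1, Meg3 and Mirg, were added after their values were seen. So were the per-library values of Htr2c and of the dorsal hippocampus, dentate and meninges lists. The 8 genes and all lists were chosen with earlier results of these data known. Annotation was GENCODE M21. The fits were tested on simulated counts. Alternatives were RLE scaling, no filter, a fit of all 20 dorsal and ventral libraries, only the groups compared, DESeq2 1.42.0, a replicate block and leaving out each library.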

Additional observations from a re-analysis of the deposited data

How the results depend on the processing

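The number of genes called in the 5 comparisons was 0 in each, and it moved with the method. DESeq2 called 35 genes for knockdown against control in ventral and 11 in dorsal libraries, 0 for ventral against dorsal in knockdown and 13 in control libraries, and 9 for the interaction. With all 20 dorsal and ventral libraries in the fit, 1 gene was called for ventral knockdown against control and 1 for the interaction. None of these calls was one of the 8 markers, and the cause was not tested. Leaving out each library in turn gave 0 to 8 calls for ventral knockdown against control, 0 to 6 for ventral against dorsal in control, 0 to 2 for the interaction, and 0 for the other comparisons. Of the 12 fold changes of the 8 markers that the naming rule selected (the Nr2f2 values set beside Nr2f1 were not among them), 69 of 69 values under the other alternatives kept their direction and stayed uncalled. When single libraries were left out, 2 of 168 values changed sign, namely Iyd for ventral against dorsal in knockdown (range -2.93 to 2.39) and Trhr for the same contrast in control (range -0.26 to 3.03). The Coch difference in ventral libraries ranged from -2.16 to -1.48 when single libraries were left out, with a DESeq2 adjusted p of 0.0847 and edgeR adjusted p of at least 0.421.

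Replicate numbers did not mark libraries that were alike, which does not settle whether same-numbered libraries shared an animal. Deviations from group means correlated at -0.16 to 0.37 between same-numbered regions of an arm and at -0.22 to 0.24 between same-numbered arms of a region, and 3 of 12 and 5 of 12 libraries correlated best with their own number. With the number as a replicate block 0 genes were called in each comparison, Coch for ventral knockdown against control was at -2.07 (edgeR adjusted p = 0.471), Iyd for ventral against dorsal in knockdown at 0.06, and Dlk1 for the interaction at -3.79. In simulated counts for ventral knockdown against control (14442 genes tested), a 2-fold change was called in 11.1% and a 4-fold change in 71% of changed genes. No detection limit was measured for the 8 markers, whose within-group SD was above the median of all genes. Iyd rested on 1 or 2 reads in 3 libraries.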

Other observations

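The single library labelled total hippocampus of the knockdown arm was low in both sets of markers. It held 1.69 CPM of Coch, 5.41 of Dlk1, 17.9 of Nr2f2 and 1.58 of Trhr, and it ranked 13 of 15 in the mean of Nr2f2, Dlk1 and Trhr. In the mean of Bok, Iyd, Grik4 and Cdh24 it ranked 12 of 15, with 23.5 CPM of Bok, 0.564 of Iyd, 38.4 of Grik4 and 15.8 of Cdh24. Its Acss2 level was 58 CPM, within the range of the 7 controls (47.4 to 58.5 CPM), so the targeted gene went against its knockdown label. It came from the whole hippocampus, while the protocol places the virus in the dorsal part, and the cause was not tested.

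Dlk1 lies in the imprinted Dlk1-Dio3 domain of chromosome 12, where it is expressed from the paternal copy and Meg3, Rian and Mirg from the maternal copy. As a list, Meg3, Rian, Mirg, Rtl1 and Dio3 followed the mean of Nr2f2, Dlk1 and Trhr across the 15 libraries (r = 0.73, rho = 0.79, and r = 0.75 without the 2 farthest libraries). Dio3, which encodes the deiodinase that inactivates thyroid hormone, was highest in dorsal control 3 (14.4 CPM), dorsal knockdown 2 (8.51 CPM) and ventral control 1 (8.11 CPM), the libraries that were also highest in Trhr. Meg3 was far more abundant and ranged from 2630 CPM in the library labelled ventral knockdown 3 to 7120 CPM in ventral knockdown 4. Meg3 and Mirg were both lowest in the library labelled ventral knockdown 3, but did not follow the mean of Nr2f2, Dlk1 and Trhr throughout. Ventral control 1 and dorsal knockdown 2 were highest in that mean, and dorsal control 1 and the total hippocampus library were near its lower end. Yet Meg3 and Mirg were both lower in the first pair than in the second.

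Few reads of the 8 genes were seen in the shallow libraries. Ventral knockdown 1 and dorsal knockdown 5 held 4 and 2 such reads, over 4 genes and 1 gene. The untreated dorsal knockdown libraries held 6 and 0, and the untreated dorsal controls 3 and 16, and no comparison with ethanol was made for these markers.

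No value of the 8 genes or of Acss2 stood far from its group by Dixon's test in the 18 sets of 4 libraries examined, from ventral control and dorsal knockdown. The groups of 3, which hold the library labelled ventral knockdown 3 and dorsal control 1, were not examined.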
